A study of Mus musculus with 80 samples.

Results

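RXR (retinoid X receptor) ChIP-Seq peaks that lay inside introns, away from every annotated exon, were examined in 40 mouse livers. Overlapping peaks of all 40 libraries on chromosomes 1 to 19, X and Y were merged into 215015 sites, of which 162081 were called in 1 library and 36132 in at least 3. Among these 36132 recurrent sites, 33657 overlapped an annotated exon and 1184 lay outside exons and outside the bodies of protein-coding genes. The remaining 1291 were the intronic sites described here. They were defined by 3 measures: calls in at least 3 of the 40 libraries, a strongest summit (the one with the highest −log10 p over the libraries) in the body of a protein-coding gene, and no overlap with an exon of any transcript type, pseudogenes included (GENCODE M21, mm10). Their recurrence and their positions are therefore given as a description, without a test.

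The mice were males of 5 months. The paper names C57BL6/J as the strain of the WT mice, and the KO mice came from a cross of PPARγ-loxP and albumin-Cre mice. Each genotype, WT or PPARγ KO, had 5 livers in each of 4 treatments, given over 12 weeks. Control and HFD mice received a control or a high-fat diet, and Pio and HFD-Pio mice received the same diets supplemented with pioglitazone (Pio). This drug is a thiazolidinedione that activates PPARγ, a nuclear receptor that binds DNA together with RXR. The KO was made with Cre recombinase under the albumin promoter, which is active in hepatocytes, so liver cells in which it is silent kept the gene. The labels of 15 KO ChIP samples, all those of KO Pio, KO HFD and KO HFD-Pio, list no antibody even though RXR stands in the titles, and every KO value outside KO Control rests on taking them as RXR ChIP.

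The libraries of the genotypes also differed in how they were read. WT libraries held 2.04 to 4.26 megatags (Mtags) after removal of duplicates and KO libraries 0.628 to 1.06. The peak threshold was a p of 0.001 for WT and a q of 0.05 for KO livers. The peak caller modelled a fragment of under 60 bp in 6 WT libraries, all from Pio-treated livers (WT Pio replicates 2, 3 and 5, and WT HFD-Pio replicates 1, 4 and 5). Genotype and depth cannot be told apart in these data. In whole liver, a change in binding and a change in the share of a cell type cannot be told apart either.

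As background, introns are spliced out of transcripts and hold most of the interspersed repeats of genes. RXR partners with PPARs, LXRs, FXR, retinoic acid receptors and thyroid hormone receptors, and the pair recognises a direct repeat of the hexamer AGGTCA whose spacer depends on the partner. PPARγ with RXR prefers a spacer of 1 base. Liver enhancers often sit in introns. Introns also contain SINEs, short repeats copied from small cellular RNAs such as 7SL RNA (the RNA of the signal recognition particle), and retrocopies, which are spliced messages copied back into the genome without their introns.

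The following mm10 sequences surround summits of intronic sites and are shown because the results turn on what they contain. A tandem repeat filled the window of the site in Ano2 (chr6:125876919-125877039, plus strand), which was called in 32 libraries. Capitals mark each GGAAT unit on either strand, which is the unit of a simple tandem array.
Ano2: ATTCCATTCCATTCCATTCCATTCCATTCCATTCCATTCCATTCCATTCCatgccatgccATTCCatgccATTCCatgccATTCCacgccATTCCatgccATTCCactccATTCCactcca

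The next set comes from sites that were called with Pio in WT livers and in 0 untreated WT livers. They lie in Adamts6 (chr13:104431003-104431153), Wrap53 (chr11:69573814-69573964) and Gphn (chr12:78351014-78351164), all on the plus strand. Capitals mark bases covered by 25-base words that also occur in annotated transcripts of another gene. These genes are Rpl32 and Rps27, which encode ribosomal proteins, and Lars2, which encodes a mitochondrial tRNA synthetase. Whole transcripts were compared, so the words shared with Lars2 need not lie in its coding sequence. The match alone therefore does not make the Gphn site a copy of the Lars2 message. Ribosomal RNA outside the annotated transcripts was not searched for in this window either.
Adamts6: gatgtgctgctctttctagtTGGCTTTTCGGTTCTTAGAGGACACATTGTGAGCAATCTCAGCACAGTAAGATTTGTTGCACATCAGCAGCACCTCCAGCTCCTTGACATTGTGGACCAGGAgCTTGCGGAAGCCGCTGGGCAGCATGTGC
Wrap53: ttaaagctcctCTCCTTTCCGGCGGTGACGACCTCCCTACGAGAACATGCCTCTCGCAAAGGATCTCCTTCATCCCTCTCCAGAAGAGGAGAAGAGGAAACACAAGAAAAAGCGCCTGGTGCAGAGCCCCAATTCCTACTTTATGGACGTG
Gphn: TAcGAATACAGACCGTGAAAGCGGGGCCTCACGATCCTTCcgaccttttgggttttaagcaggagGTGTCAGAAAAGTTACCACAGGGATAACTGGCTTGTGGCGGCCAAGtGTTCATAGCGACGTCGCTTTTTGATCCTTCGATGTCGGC

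The site in Cdk8 (chr5:146261058-146261178, plus strand) was called in all 20 KO livers and 0 WT livers, and that in Mad1l1 (chr5:140204136-140204256, plus strand) was the most recurrent site called in WT livers alone. Both are shown without capitals, since neither held a GGAAT array or transcript words. Other content, such as copies of ribosomal RNA outside the annotated transcripts, was not searched for.
Cdk8: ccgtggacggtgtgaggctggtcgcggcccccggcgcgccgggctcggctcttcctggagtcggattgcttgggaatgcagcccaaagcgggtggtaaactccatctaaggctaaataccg
Mad1l1: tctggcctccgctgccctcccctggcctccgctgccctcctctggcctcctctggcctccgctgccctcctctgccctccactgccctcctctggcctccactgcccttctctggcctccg

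The last pair, in Gria1 (chr11:57293835-57293975) and Trim9 (chr12:70257256-70257381), both on the plus strand, held the only perfect direct repeats of AGGTCA among the 1291 windows. They were chosen after their values were seen. Capitals mark the repeat, which read on the other strand has a spacer of 1 base.
Gria1: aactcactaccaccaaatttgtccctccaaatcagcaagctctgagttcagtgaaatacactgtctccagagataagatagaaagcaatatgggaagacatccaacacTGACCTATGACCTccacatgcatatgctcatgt
Trim9: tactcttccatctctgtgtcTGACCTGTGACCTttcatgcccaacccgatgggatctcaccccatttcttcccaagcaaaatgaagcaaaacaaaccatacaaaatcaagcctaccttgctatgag

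Most intronic sites were called in few livers and in a single genotype. The median site was called in 4 of 40 libraries, 532 sites were called in exactly 3, and the most recurrent was called in 36. KO livers alone held 691 sites (53.5%), WT livers alone 338 (26.2%) and both genotypes 262 (20.3%). The corresponding shares were 75%, 6.28% and 18.7% for the 33657 exonic sites and 32.2%, 45.6% and 22.2% for the 1184 sites outside genes. Only 80 intronic sites (6.20%) were called in at least 3 livers of each genotype. At the limit of the definition, 2572 intronic sites called in 2 libraries just missed it and had a median highest fold enrichment (ChIP over local input at the summit) of 3.81. The 532 sites called in 3 libraries and the 229 called in 4 had medians of 4.56 and 4.72.

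**Figure D1:**
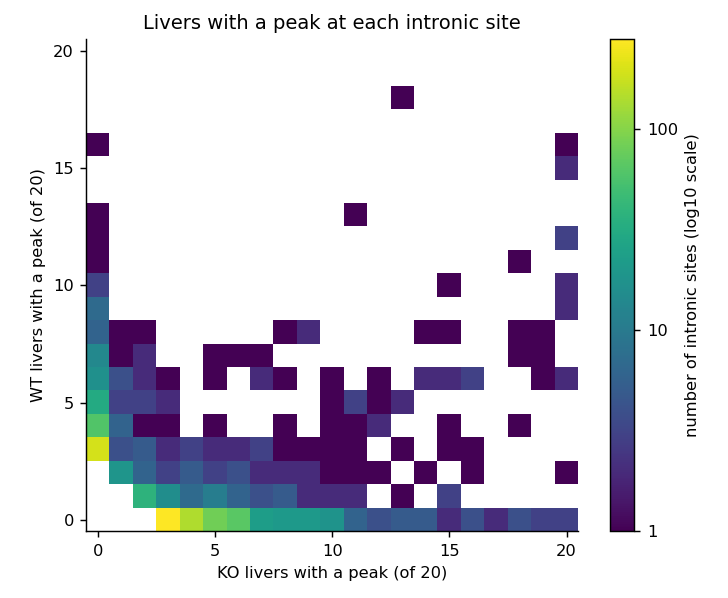
Intronic sites by the number of KO livers (x axis, 0 to 20) and of WT livers (y axis, 0 to 20) in which each was called, with the number of sites in each square on a logarithmic colour scale and blank squares for no site. Most sites lie along the axes, with 691 called in KO livers alone and 338 in WT livers alone, and few lie where both genotypes reach 3 livers.

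The sites were narrow and lay in long genes. Their median width was 344 bp, with a range of 48 to 5688 bp, and 34 were wider than 1000 bp. They fell in 880 protein-coding genes, 1260 in the body of 1 gene and 31 in overlapping genes. The genes had a median length of 81.6 kb against 17.4 kb over all 21911 protein-coding genes. The median gap between a site and the nearest exon was 1322 bp, 147 sites were within 200 bp of an exon, and 48 had a summit within 1 kb of a transcription start site. The median fold enrichment of a site was 3.97. The median pileup at the summit, not scaled by depth, was 3 tags for sites called in KO livers alone and 5 tags for those called in WT livers alone.

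Intronic sites were counted in each liver. In WT Control the 5 livers held 31, 185, 51, 128 and 31 sites, with a mean of 85.2 ± 68.6 (SD, n = 5). In WT Pio they held 168, 169, 301, 39 and 192 (174 ± 93.2), so that the groups overlapped. In WT HFD the counts were 64, 40, 61, 29 and 50 (48.8 ± 14.6), and in WT HFD-Pio they were 253, 41, 88, 200 and 118 (140 ± 85.7). The lowest liver of WT HFD-Pio was below the highest of WT HFD.

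Most KO livers held more. KO Control held 233, 329, 327, 161 and 285 sites (267 ± 71.0, SD, n = 5) and KO Pio 280, 222, 274, 352 and 231 (272 ± 51.6). KO HFD held 269, 362, 359, 262 and 61 (263 ± 122), the last being the lowest KO liver, and KO HFD-Pio held 215, 228, 258 and 220 in replicates 1 to 4 and somewhat fewer in replicate 5 (224 ± 21.2). As a share of all recurrent sites called in a liver, intronic sites made up 22.0 to 39.8% in untreated WT, 3.69 to 9.68% in Pio-treated WT and 1.01 to 2.89% in KO livers, and these 3 ranges did not overlap. Beside them, exonic sites numbered 11 to 76 in an untreated WT liver, 551 to 6586 in a treated WT liver and 5241 to 17295 in a KO liver.

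**Figure D2:**
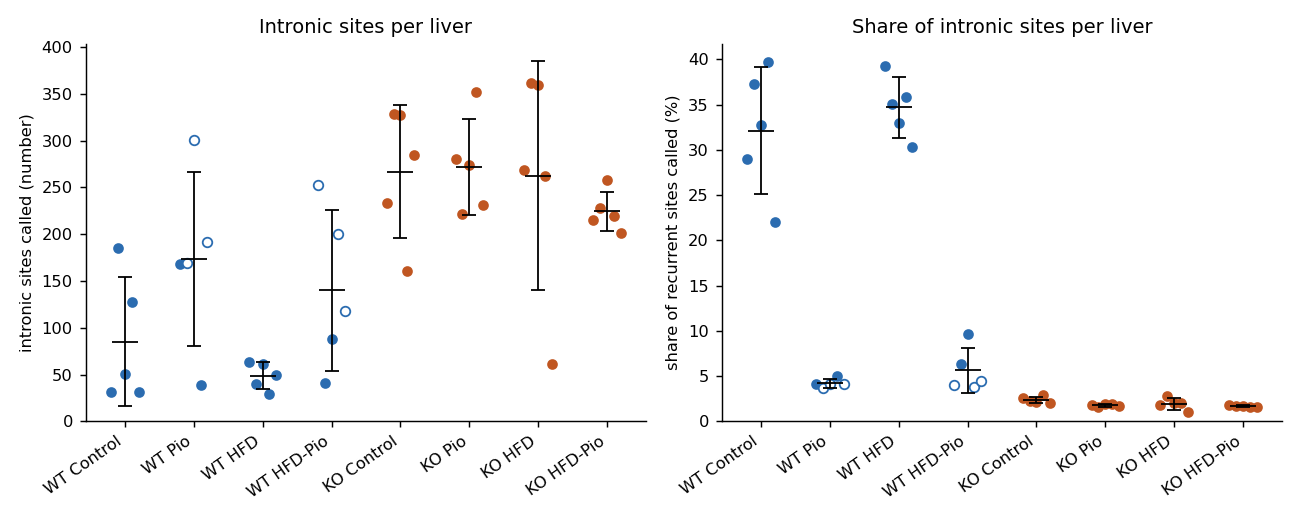
Intronic sites called in each of 40 livers by group, as a number (left) and as a share in percent of all recurrent sites called in that liver (right), with points for livers (WT blue, KO orange, open circles for the 6 libraries with modelled fragments under 60 bp), a short bar for the mean and error bars of 1 SD, n = 5 per group. KO livers reach 362 sites, while the share is 22.0 to 39.8% in untreated WT livers and at most 9.68% in all others.

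The most recurrent intronic sites were shared by both genotypes, and most of them carried repeat sequence. The site in Acacb, which encodes the acetyl-CoA carboxylase of the mitochondrial membrane, spanned chr5:114172870-114173408 and lay 2498 bp from the nearest exon. It was called in 36 libraries. Fold enrichment in the 4 WT Control livers with a peak was 11.6, 5.14, 4.66 and 5.63, and in the 5 KO Control livers it was 40.6, 26.8, 28, 40.9 and 37.6. Over all livers with a peak, the lowest, median and highest values were 2.78, 5.39 and 25.6 over the 16 WT livers, and over the 20 KO livers they were 15, 27.4 and 45.1, so the ranges overlapped.

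The site in Plxdc2, which encodes a plexin-domain membrane protein, spanned chr2:16682836-16683391 and was called in 15 WT livers, at 2.64, 7.56 and 15 (lowest, median and highest fold enrichment), and in 20 KO livers, at 11.7, 24 and 37.5. That in Fam227b, at chr2:126147636-126148185, was called in 15 WT livers at 2.84, 5.46 and 14.9 and in 20 KO livers at 9.53, 14 and 27.2. Both were higher in KO livers by their medians, with overlapping ranges.

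6 further sites were called in 30 to 32 libraries and 1 in 29. Zfp821 (a zinc finger gene), Ybx3 (a cold shock domain protein that binds RNA) and Ano2 (a chloride channel) each had 12 WT and 20 KO livers. Lipc, which encodes hepatic lipase, and Izumo1, a sperm fusion protein, each had 10 WT and 20 KO livers. Auts2 had 11 WT and 18 KO livers. Dpp9, a dipeptidyl peptidase, was the exception with 18 WT and 13 KO livers, and its WT values of 3.66, 7.08 and 18.2 (lowest, median and highest) overlapped its KO values of 2.71, 5.29 and 15.8. Of these 10 sites, 7 held AGGCTGAGG or GTAGCTGGG on either strand, which are called the SINE words from here on, and those in Ano2 and Dpp9 held GGAAT arrays with tandem stretches of 109 and 140 bp. The SINE words and GGAAT arrays also occur in the Alu and satellite repeats of primates, and whether reads of another organism contributed to these sites was not tested.

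**Figure D3:**
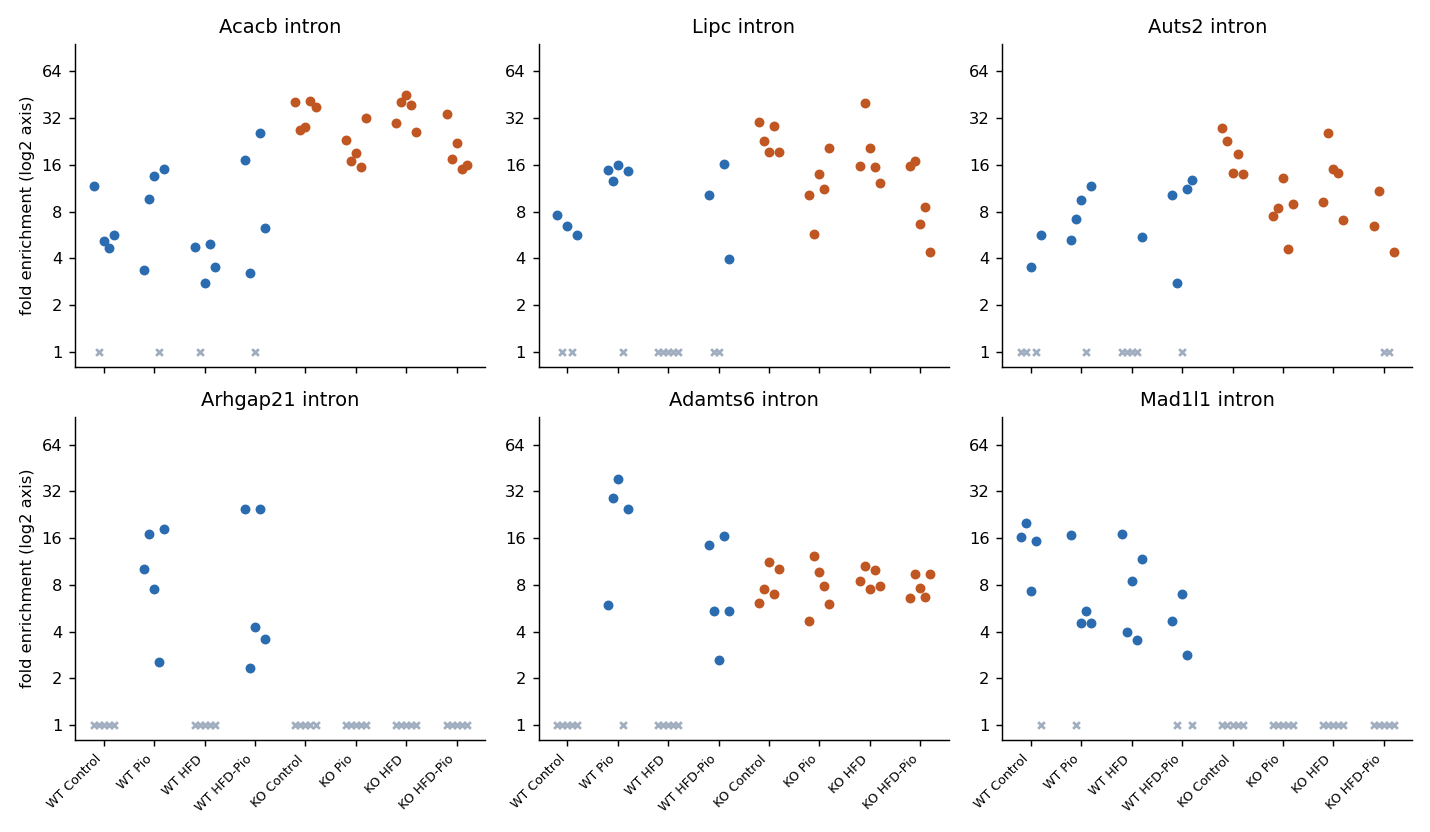
Fold enrichment in each liver (logarithmic y axis, ChIP over local input) by group at 6 intronic sites, with WT in blue and KO in orange. Grey crosses at 1 mark livers without a peak, for which no value was recorded. In Acacb every KO liver lies at or above 15, Arhgap21 has values in the 10 treated WT livers alone, and Mad1l1 has values in WT livers alone.

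Sites called in KO livers alone included 3 that were called in all 20. They lay in Cdk8, the kinase of the Mediator complex (chr5:146260890-146261390), in Copg2, a coat protein of transport vesicles (chr6:30802674-30803044), and in Pcbp2, which binds poly(C) RNA (chr15:102493566-102494271). In Cdk8 fold enrichment was 3.89, 3.44, 4.34, 4.14 and 3.67 in KO Control and 1.95 to 6.88 over all KO livers. In Copg2 the lowest, median and highest values were 6.04, 14.5 and 20.4, and in Pcbp2 they were 3.47, 6.04 and 11.1. Each was called in 0 of 20 WT livers (two-sided Fisher's exact test, p = 1.45e-11, adjusted over all 36132 recurrent sites 4.52e-10).

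A second Copg2 site, at chr6:30803075-30808762 and the widest of all at 5688 bp, was called in 20 KO and 2 WT livers. Its KO values were 17.5, 24.6 and 35.9 and its WT values were 4.36 and 5.78, which did not overlap. Sites in 1810013L24Rik, 2010111I01Rik and Ptprs (a receptor tyrosine phosphatase) were each called in 19 KO and 0 WT livers (adjusted p = 5.82e-09), and that in Gtsf2 in 18 KO livers (adjusted p = 4.93e-08).

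The pileup showed how much input lay under these peaks. The Cdk8 site had a median pileup of 63 tags with a median fold enrichment of 4.08, whereas the first Copg2 site had 15.5 tags with a median of 14.5. Several WT sites also had a high pileup at a low fold enrichment. Pileups were not scaled by depth, so those of WT libraries (2.04 to 4.26 Mtags) and KO libraries (0.628 to 1.06) do not compare directly. The Mdga2 site at chr12:67059166-67059833 had a median of 126 tags at a fold enrichment of 2.01, that in 2210408I21Rik (chr13:77438736-77439213) 92 tags at 2.13, and that in Cdk5rap2, a centrosome gene (chr4:70377955-70378424), 79.5 tags at 2.19. At such sites input was high where ChIP was high, and the part of this in their calls was not tested.

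Many sites of KO livers were clustered in a few genes, several of them genes of the nervous system. 8 genes held 9 or more sites each and 113 together, of which 108 (95.6%) were called in KO livers alone. They were Gria1, a glutamate receptor subunit, with 30 sites, Mpped1 with 19, Cadm1, a cell adhesion molecule, with 13, Celf2 with 12, Elavl3, a neuronal RNA-binding protein, with 11, Snap25, a protein of synaptic vesicle fusion, with 10, and Dlgap4 and Ptbp2 with 9 each. Gene lengths ran from 37.0 kb (Elavl3) to 970 kb (Celf2). Elavl3, Ptbp2, Snap25 and Mpped1 were shorter than the 81.6 kb median of all genes with a site. The Gria1 sites were spread over a gene of 319 kb and accounted for 176 calls in 18 KO livers and 2 calls in 2 WT livers. Their fold enrichment per site was 3.11 to 4.43 and their median pileup 3 tags. Per liver, KO Control held 6.0 ± 5.24 Gria1 sites, KO Pio 11.4 ± 4.39, KO HFD 10.4 ± 5.68 and KO HFD-Pio 7.4 ± 5.46 (SD, n = 5 each), and the SDs were about as large as the differences.

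Elavl3 sites were found in all 20 KO livers and Snap25 sites in 19, with 61 and 73 calls and 0 calls in WT livers. The most recurrent Snap25 site, chr2:136765704-136767659, was called in 15 KO livers at a fold enrichment of 2.81 to 5.63. From a list of 24 neural genes, 12 held 33 sites, against 4.02% of all protein-coding genes, but the list's median gene length was 345 kb against 17.4 kb. Of those 33 sites, 22 (66.7%) were called in KO livers alone and 6 in WT livers alone, and 0 held the SINE words. Snap25 supplied 10 of the 33, and of the 23 sites in the other genes 12 (52.2%) were called in KO livers alone, near the 53.5% of all intronic sites. Rbfox1 held 6, Map2 4, and Csmd1, Gria2, Lsamp and Ptprd 2 each. In the gene lists below, 2 of 25 markers of non-parenchymal liver cells and 0 of 21 hepatocyte identity genes held a site. The part of neural cells, of gene length and of the shallow KO libraries in these calls was not tested.

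Sites called in WT livers alone were led by Mad1l1, a spindle checkpoint gene (chr5:140203926-140204601). Fold enrichment was 16.1, 20.1, 7.32 and 15.2 in 4 WT Control livers and 16.9, 4, 8.44, 3.51 and 11.8 in the 5 WT HFD livers. Over 16 WT livers the lowest, median and highest values were 2.82, 7.13 and 20.1, and 0 of 20 KO livers had a peak (Fisher's exact test, adjusted p = 1.50e-06). The window had a GC content of 70.1%, and 90.5% of it was masked as repeat. The Mdga2 site named above was called in 13 WT livers (adjusted p = 7.73e-05) and that in Shmt1, a hydroxymethyltransferase of folate metabolism, in 12 (adjusted p = 0.000235). WT livers alone also held 11 calls in 2210408I21Rik and 10 in Agmat, an agmatinase.

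Across all intronic sites, 52 (4.03%) were called in more WT than KO livers and 235 (18.2%) in more KO livers at an adjusted p below 0.05. Over all recurrent sites these shares were 2.95% and 44.9%. Thus the share of calls toward KO was lower among intronic sites than among all recurrent sites, and no test of that gap was run. Among untreated livers alone the counts were 7 and 114, and among treated livers alone they were 40 and 47. When WT libraries were also held to the q of 0.05, the counts over all livers were 32 and 248. Shares over all recurrent sites are not given for these settings, so the counts have no background to be read against. Depth moved with genotype.

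With Pio, intronic sites of WT livers were mostly gained. On control diet 116 sites (8.99%) were called in at least 3 of 5 WT Pio livers and in 0 of 5 WT Control livers, and 9 (0.697%) the other way round. Over all recurrent sites the shares were 10.7% and 0.0609%. On HFD 63 sites (4.88%) were gained and 2 (0.155%) lost, against 6% and 0.0249% over all recurrent sites. So intronic sites were gained at shares near or below the background and lost, in small numbers, at shares above it. Among the 9 lost on control diet, sites in Chchd6, a mitochondrial protein, Itpr2, a calcium channel of the endoplasmic reticulum, and Mdga2 (another site than the one above) were called in 3 WT Control livers and 0 WT Pio livers, at a fold enrichment of 2.91 to 7.46 over WT livers. The gained sets shared 46 sites, which was 39.7% of the control diet set and 73.0% of the HFD set. Of the 116 sites gained on control diet, 60 were called in 0 KO livers, 22 in at least 10 and 4 in all 20, and of the 63 gained on HFD these numbers were 33, 16 and 5.

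Over both diets, 17 intronic sites (1.32%) were called in more treated than untreated WT livers (two-sided Fisher's exact test, 10 against 10 livers, adjusted p below 0.05), against 2.61% of all recurrent sites. Fewer calls with Pio were found at 0 intronic sites and at 0% of all recurrent sites, with 1 intronic site at an unadjusted p below 0.05, whereas 106 were higher at that unadjusted limit. All 17 were called in 0 of 10 untreated WT livers.

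Arhgap21, which encodes a GTPase-activating protein of the Golgi, and Gphn, which encodes the scaffold protein gephyrin, were called in 10 of 10 treated WT livers (Fisher's exact test, p = 1.08e-05, adjusted p = 0.00246). In Arhgap21 (chr2:20899765-20900345) fold enrichment was 10.2, 17.1, 7.48, 2.55 and 18.3 in WT Pio and 24.8, 2.32, 4.30, 24.7 and 3.59 in WT HFD-Pio, and 0 of 20 KO livers had a peak. In Gphn (chr12:78350772-78351257) it was 4.40, 9.73, 10.2, 1.66 and 15 in WT Pio and 12.4, 1.86, 2.17, 20.3 and 5.85 in WT HFD-Pio, and 15 KO livers had a peak at 3.65 to 7.78. At both sites the lowest treated livers were those with fragments over 60 bp, WT Pio replicate 4 and WT HFD-Pio replicate 2.

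6 sites were called in 9 treated and 0 untreated WT livers (Fisher's exact test, p = 0.000119, adjusted p = 0.00946). Adamts6, which encodes a secreted metalloproteinase, reached a fold enrichment of 5.97, 28.8, 38.3 and 24.5 in 4 WT Pio livers and 14.4, 5.43, 2.64, 16.4 and 5.43 in WT HFD-Pio. It was also called in all 20 KO livers, treated or not, at 4.70 to 12.3. Jarid2, a subunit of Polycomb complexes, behaved alike with 9 treated WT livers at 3.03 to 12.9 and 20 KO livers at 4.50 to 9.85.

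The other 4 sites had 0 calls in KO livers. Wrap53, which acts in telomerase assembly, had 5.69, 12.9, 15 and 17.3 in WT Pio and 23.5, 4.38, 3.59, 29.2 and 6.16 in WT HFD-Pio. Nlrp4e, a gene of the NLR family, had 7.11, 12.0, 14.1, 5.06 and 12.4 in WT Pio and 13.4, 3.58, 8.93 and 8.19 in WT HFD-Pio. Col6a6, a collagen chain, was called at 2.53 to 14.5 and Dnah7b, a dynein heavy chain, at 3.19 to 12.0. The remaining 9 of the 17 were called in 8 treated and 0 untreated livers (adjusted p = 0.0275).

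The libraries with modelled fragments under 60 bp carried most of these calls. Of the 17 sites, 16 were called in all 6 of those libraries and the last in 5, while 2 to 4 of the 4 other treated libraries called them. With the 6 libraries left out (4 treated against 10 untreated livers), Fisher's exact test called 0 of the 36132 recurrent sites, 9 intronic sites had an unadjusted p below 0.05, and the smallest p was 0.000999 (adjusted p = 0.224). Since 4 livers against 10 allow no smaller p, the loss of all calls there says little about single sites. Arhgap21 and Gphn were called in 4 of those 4 treated livers and in 0 of the 10 untreated ones. The part of fragment size in the Pio calls was not tested further.

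Many sites that WT livers gained under Pio matched the spliced transcripts of other genes. A site was counted as transcript-like when its window of 100 bp to either side of the summit shared at least 50 of its 25-base words with the transcripts of 1 other gene and when at most 25 genes shared them. By this measure, whose limits were set after the sequences had been seen, 71 intronic sites (5.50%) were transcript-like, against 0.774% of windows 1 kb to either side outside exons and 11.9% of sites outside genes. Of 133 sites that WT livers gained under Pio on either diet, 34 (25.6%) were. Of the 71 sites, 65 matched a protein-coding gene, and 7 matched a gene or, in Rilpl1, a processed pseudogene for a ribosomal protein. Besides the matches shown above, Tmem132d matched Eif1, a translation initiation factor, Spidr matched Cycs, which encodes cytochrome c, and Lcor matched Morf4l1.

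Transcript-like sites were called in 0 of 10 untreated WT livers. In treated WT livers with fragments over 60 bp there were 29, 4, 4 and 5 of them, and in those with shorter fragments 31, 57, 41, 52, 45 and 15, so the ranges overlapped. KO livers held 3 to 14. Exons of the matched gene itself carried a recurrent site for 68 of the 71. In 368 of the 432 calls of transcript-like sites (85.2%) the same liver also had a peak on the matched gene's exons. The matched genes had such a peak in a median of 7 treated WT livers and 17 KO livers, and no share expected without a link was worked out. For 66 of the 71 the matched gene had no such peak in any untreated WT liver. Those livers called only 11 to 76 exonic sites each, so this absence says little. At shared words, tags from the 2 places cannot be told apart, and whether RNA or cDNA in the libraries contributed to these matches was not tested.

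**Figure D4:**
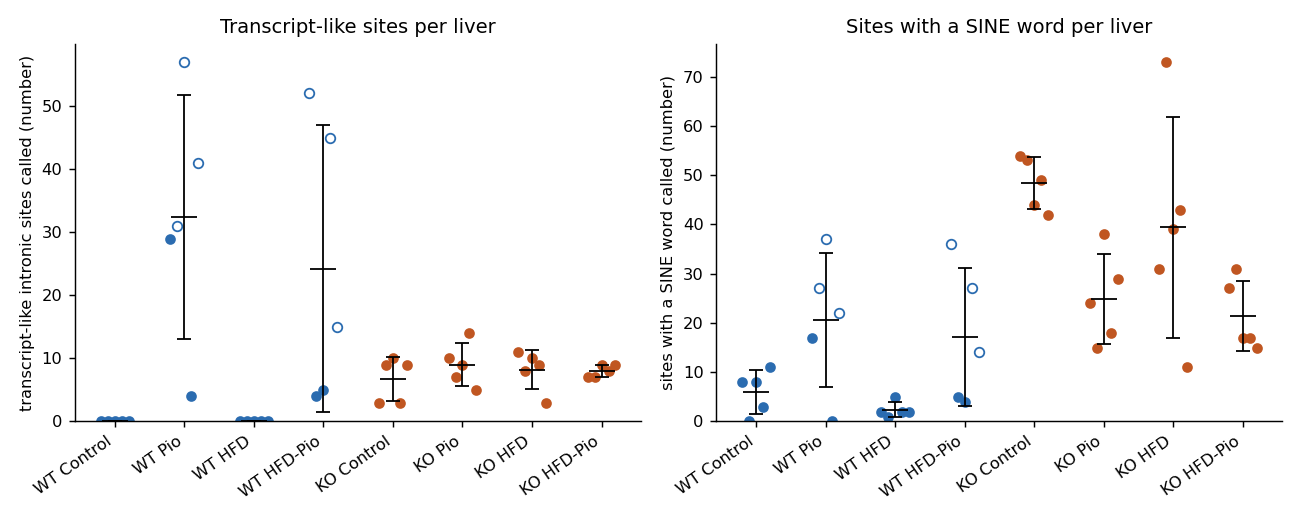
Transcript-like intronic sites (left) and intronic sites with a SINE word (right) called in each liver by group (y axes, number of sites), with WT in blue, KO in orange, open circles for the 6 libraries with modelled fragments under 60 bp, a short bar for the mean and error bars of 1 SD, n = 5 per group. Transcript-like sites are at 0 in every untreated WT liver and reach 57 in WT Pio, and sites with a SINE word are at 42 to 54 in KO Control and 15 to 38 in KO Pio.

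In KO livers Pio gave fewer gains, and losses were as frequent. On control diet 24 intronic sites (1.86%) were gained and 36 (2.79%) lost, against 3.25% and 0.689% of all recurrent sites. On HFD 18 (1.39%) were gained and 19 (1.47%) lost, against 1.43% and 1.05%. The 24 and 18 gained sites shared 0. Sites in Cacna1b, a neuronal calcium channel, Dnm1, a dynamin, Purg and Taf15 were each gained with 4 KO Pio livers against 0 KO Control livers, and fold enrichment there was 2.80 to 5.96 over all KO livers. Sites in Agfg2, Asap3, Cldn10, a claudin, and Snx1 were among those lost, with 4 KO Control livers against 0 KO Pio livers.

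By Fisher's exact test over 10 treated and 10 untreated KO livers, 0 intronic sites and 0% of all recurrent sites passed in either direction. At an unadjusted p below 0.05, 6 were higher and 28 lower with Pio, and the smallest p was 0.00109. The difference in the Pio effect between WT and KO livers was tested with Zelen's exact test, which called 0 intronic sites (0% of all recurrent sites). This test cannot call a site that only 1 genotype called. That holds for the 691 sites of KO livers alone and the 338 of WT livers alone, and for those the result says nothing. Of all intronic sites, 48 had an unadjusted p below 0.05 by Zelen's test, with a smallest p of 0.000206 (adjusted p = 0.781).

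Fold enrichment itself could be compared in KO livers at sites called in all 10 livers of a contrast, which 22 intronic sites were on each diet. On control diet limma called 3 of them (13.6%) at an adjusted p below 0.05, against 0.598% of 2508 sites tested. All 3 were lower with Pio. In Auts2, a gene of neural development, fold enrichment was 27.7, 22.6, 14.1, 18.9 and 14 in KO Control and 7.51, 8.49, 13.1, 4.6 and 9.01 in KO Pio, so the groups did not overlap. The log2 change after centring on each liver's median was −1.34 ± 0.27 (SE, limma adjusted p = 0.018).

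In Izumo1 KO Control had 24.5, 15.6, 15.8, 27.9 and 19.8 and KO Pio 11.9, 9.42, 10.2, 3.85 and 12.6, again without overlap (log2 change −1.31 ± 0.29, limma adjusted p = 0.0351). In Lipc KO Control had 30.3, 22.7, 19.3, 28.6 and 19.2 and KO Pio 10.2, 5.72, 14, 11.1 and 20.5, where the highest KO Pio liver exceeded the lowest KO Control livers (log2 change −1.18 ± 0.27, limma adjusted p = 0.0404). The calls depended on single libraries, with 0 sites called without KO Control replicate 1, without KO Control replicate 4 or without KO Pio replicate 4, and 11 without KO Pio replicate 5. Acacb had a log2 change of −0.86 ± 0.22 (limma adjusted p = 0.0645), and Cdk8, Copg2 and Pcbp2 had 0.19, 0.25 and 0.54.

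All 3 called sites held the SINE words. Over the 22 sites the median log2 change was −0.73, with 17 lower and 5 higher, against a median of 0.00 over the 2508 sites tested. The 10 sites with the words were all lower, between −1.34 and −0.45, with a median of −0.87, and the 12 without lay between −1.33 and 0.54, with a median of −0.07. Among those 12, Ano2, Hapln1 and Zfp821 had −1.33, −0.99 and −0.78, as low as sites with the words (limma adjusted p = 0.0645, 0.068 and 0.108). On HFD limma called 0 of 22 intronic sites (0% of 2775 sites), 3 had an unadjusted p below 0.05, and the median log2 change was −0.09. There the 6 sites with the words were also all lower, with a median of −0.45, and the 16 without had a median of −0.06. The words had been chosen after the leading sequences were seen, and these are descriptions.

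The number of sites with the SINE words moved likewise. KO Control livers held 54, 53, 44, 49 and 42 and KO Pio livers 24, 15, 38, 18 and 29, which did not overlap. KO HFD livers held 31, 73, 39, 43 and 11 and KO HFD-Pio livers 27, 31, 17, 17 and 15, which overlapped. Of the 36 sites lost in KO Pio, 12 held a word (33.3%), against 87 of all 1291 (6.74%). That base includes sites that KO Control livers did not call and so could not lose. Of the sites called in a KO Control liver, 13.5 to 30.4% held a word (mean 19.6%, n = 5). Since KO Control is the one KO group whose labels name the antibody, treatment and that difference in labels cannot be told apart on control diet.

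Diet changed few intronic sites, in WT livers at shares above those of all recurrent sites and in KO livers at shares below them. In WT livers HFD against Control gained or lost 11 sites (0.852%, against 0.0747% of all recurrent sites) and HFD-Pio against Pio 9 (0.697%, against 0.363%). In KO livers these counts were 16 (1.24%, against 2.11%) and 33 (2.56%, against 3.18%). Among them, Lipc and Ybx3 were called in 3 WT Control livers and 0 WT HFD livers, and Cdk5rap2 in 0 and 3. Over 10 livers against 10, Fisher's exact test called 0 intronic sites for HFD in WT (0% of all recurrent sites), with 1 at an unadjusted p below 0.05, and 0 for HFD in KO (0%), with 3.

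What the sites shared in sequence differed with the livers that called them. The words AGGCTGAGG or GTAGCTGGG occurred in 87 windows. They were in 5.07% of sites called in KO livers alone, in 0.296% of those called in WT livers alone and in 19.5% of those called in both, against 1.14% of windows beside the sites and 1.56% of all recurrent sites. The words were chosen after the leading sequences were seen, and the most recurrent sites were called in both genotypes. The 95% Wilson intervals of these 3 groups of sites did not overlap. That choice favours the sites called in both, so the intervals are a description and no test. Among the 80 sites called in at least 3 livers of each genotype, 25% held AGGCTGAGG and 22.5% GTAGCTGGG. GTAGCTGGG also occurs 1 time in each of the 7SL RNA genes Rn7s1, Rn7s2 and Rn7s6, and AGGCTGAGG in 0 of them.

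Other words and repeats were counted as well. The word AGGCAGAGG, on either strand, was found in 2.66% of sites called in WT livers alone, 4.20% of those in KO livers alone and 16.8% of those in both, against 2.96% beside the sites. It thus had the same order as the SINE words, whereas tandem repeats were most frequent in sites called in WT livers alone. Tandem repeats of at least 20 bp with units of up to 6 bases were found in 24.9% of sites called in WT livers alone, in 6.22% of sites called in KO livers alone and in 15.6% of those called in both, against 7.15% beside the sites and 2.41% of all recurrent sites. More than 50% of the window was masked as repeat in 54.7%, 11.9% and 49.2% of these groups (the intervals of the first and the last overlap), in 18.3% of windows beside and in 4.07% of all recurrent sites. Transcript-like sites made up 14.2%, 1.16% and 5.73%. Over all 1291 sites, 973 (75.4%) held neither the SINE words, nor a tandem repeat, nor transcript words.

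**Figure D5:**
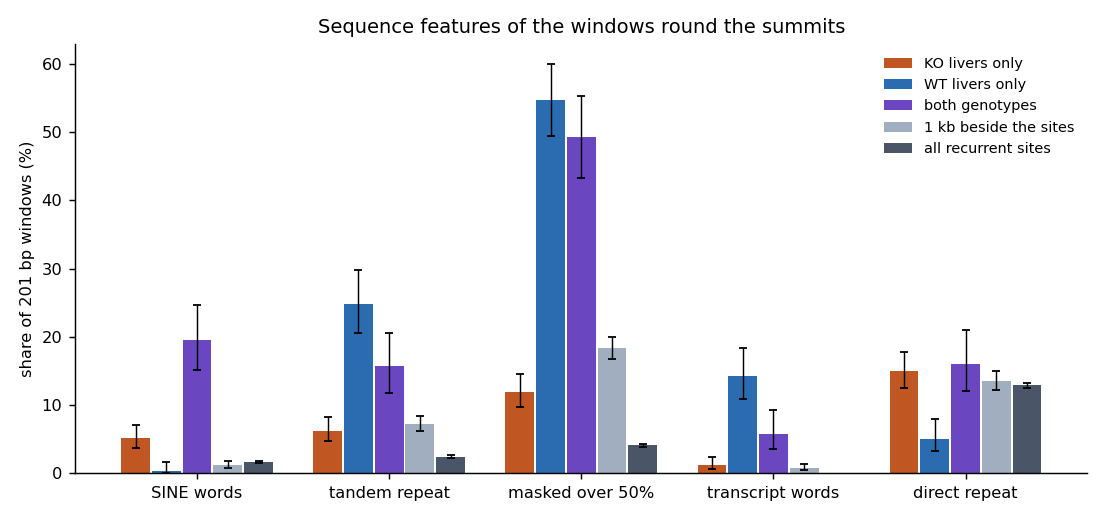
Share of windows round the summits that hold each sequence feature (y axis, percent, bars with 95% Wilson intervals that cover counting error only), for intronic sites called in KO livers alone, in WT livers alone or in both, for windows 1 kb beside the sites and for all recurrent sites, where transcript words were not counted. The SINE words reach 19.5% in sites of both genotypes, tandem repeats 24.9% in sites of WT livers alone, and direct repeats of AGGTCA stay within 5.03% to 16% in every set.

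Over all intronic sites, the elements that RXR is known to bind were about as frequent as beside them, with differences by genotype. A direct repeat of AGGTCA with a spacer of 0 to 5 bases and at most 2 mismatches, on either strand, was found in 162 windows (12.5%, 95% Wilson interval 10.9 to 14.5), against 13.5% of windows beside the sites and 12.8% of all recurrent sites. It was in 14.9% of sites called in KO livers alone, 16% of those in both and 5.03% of those in WT livers alone (95% Wilson interval 3.16 to 7.91), the last below the windows beside the sites (12.1 to 15). The spacer of 1 base was found in 2.32% of intronic sites, 3.46% of windows beside and 2.60% of all recurrent sites. The hexamer AGGTCA alone was in 10.7% of intronic sites, 12.9% of windows beside and 12.7% of all recurrent sites. It was in 15.3% of sites called in KO livers alone, 3.85% of those in WT livers alone and 7.25% of those in both.

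With at most 1 mismatch, 13 intronic sites (1.01%) held a direct repeat, and with 0 mismatches the 2 shown above did. The Gria1 site (chr11:57293595-57293994) was called in 5 KO livers at a fold enrichment of 2.86, 3.77 and 3.84 (lowest, median and highest), and the Trim9 site (chr12:70257155-70257413) in 3 KO livers at 2.82, 2.88 and 4.41. Both were called in 0 of 20 WT livers, and their fold enrichment was at or below that of many other intronic sites. Of the sites that WT livers gained under Pio, 2 of 133 (1.5%) held a direct repeat with a spacer of 1 base at up to 2 mismatches, against the 2.60% of all recurrent sites and 3.46% beside the sites given above, and 0 of 133 held any direct repeat at up to 1 mismatch.

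Most lists of liver metabolism held 0 or 1 gene with an intronic site, which is near the 4.02% of all protein-coding genes for lists of this size. None of the 30 PPARγ target and lipid droplet genes did, nor any of 53 genes of oxidative phosphorylation, 19 of retinoid metabolism, 14 of intestine and smooth muscle, or Pparg itself. Acacb was the 1 of 31 genes for LXR targets, cholesterol and lipogenesis, Hsd17b4 the 1 of 37 for fatty acid oxidation, and Cyp27a1 the 1 of 21 for FXR targets and bile acids. The Cyp27a1 site, in the gene for a sterol hydroxylase of bile acid synthesis (chr1:74719843-74720127), was called in 9 KO livers at 4.50, 5.21 and 12.5 and in 1 WT liver at 3.81 (Fisher's exact test, adjusted p = 0.0209), with all 5 KO Control livers among them.

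Shares above that background were found for drug metabolism, with 2 of 19 genes (10.5%), Ugt1a1 and Ugt1a9, which share 1 site, and for gluconeogenesis, glycolysis and clock genes, with 2 of 26 (7.69%), G6pc and Clock. The site in G6pc, the phosphatase of glucose release (chr11:101369193-101369483), was called in 2 WT HFD-Pio and 7 KO livers at 2.77 to 6.49 (adjusted p = 0.178). That in Clock, the circadian activator, was called in 3 treated WT livers at 3.75 to 4.56 and matched transcripts of Ube2n. Of 48 nuclear receptor and coregulator genes, 5 (10.4%) held 10 sites: Ncoa1, a coactivator, and Thra with 3 each, Rarb with 2, and Esr1 and Thrb with 1 each. Median gene length was 80.0 kb in this list, 51.3 kb for gluconeogenesis, glycolysis and clock genes and 26.5 kb for drug metabolism. Over all protein-coding genes it was 17.4 kb, and the part of gene length in these shares was not tested. In Ncoa1, the site at chr12:4417597-4418062 was called in 15 KO and 1 WT liver at 2.84 to 15.4 in KO (adjusted p = 6.95e-05). In Esr1, the site at chr10:4616380-4616673 held both SINE words and was called in 9 KO and 0 WT livers (adjusted p = 0.00423). Over all lists, 0 sites were called higher with Pio in WT livers.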

How the data were processed

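RXR ChIP-Seq was measured in 40 livers, 5 in each of 8 groups taken from the labels, and each ChIP library had an input. The authors aligned reads to mm10 with Novoalign (version not given in the sources used here) and called peaks per library against its input with MACS2 2.1.1.20160309. The deposited ratio is the fold enrichment of ChIP over local input at the summit, and the deposited signal is the pileup in tags at the summit. The deposited −log10 p and −log10 q are those of MACS2. Per the file headers, a p cutoff of 0.001 was used in 20 WT libraries and a q cutoff of 0.05 in 20 KO libraries. The deposited narrowPeak lists held the same peaks in 40 of 40 libraries and were not used further. Reads per site were not used here, so depth enters only as tags per library and no counting limit per site was set. The peak lists give no value where no peak was called.

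From these files, peaks overlapping by at least 1 bp were merged into sites, and a site took the fold enrichment of its strongest peak in a liver. Calls were compared with two-sided Fisher's exact tests and Zelen's exact test, with p-values adjusted by Benjamini-Hochberg over 36132 sites. Fold enrichment was compared with limma 3.58.1 (R 4.3.3) on log2 values centred per liver, at sites called in all 10 livers of a contrast. Windows of 100 bp on each side of the summit were read from GRCm38 with GENCODE M21, and windows beside them, 1 kb away, were kept where they held no exon (2195 of 2582). The scripts (scipy 1.17.1 and pandas 2.3.3 under Python 3.11.15) were tested on simulated data. Where nothing in the labels says more, p-values measure the spread between these livers.

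The sites, gene lists, words and limits were chosen with earlier results of these data known. Sites were named by rule: the 10 called in most libraries, the 5 with the highest fold enrichment per genotype, up to 5 gained and lost per Pio contrast, up to 2 per diet contrast, up to 8 per direction of each Fisher test, up to 5 by Zelen's test, up to 5 limma calls per direction and up to 5 per gene list. The genes with the most sites, the transcript matches and the perfect direct repeats were named after their values were seen. No label pairs a liver of 1 group with that of another. Alternatives covered the peak threshold, overlap, recurrence, gain rule, fragment size, replicate block and each liver left out. Some sequences and 1 gene are not reported here.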

Additional observations from a re-analysis of the deposited data

Results flagged for a closer look

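Of 32 combinations of a group and a measure per liver, 1 held a liver far from the other 4. Among WT HFD livers, replicate 3 held 5 intronic sites with AGGCTGAGG or GTAGCTGGG while the others held 1 or 2, a gap of 0.75 of the group's range. Chance flags about 1 in 20 groups.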

How the results depend on the processing

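KO livers had 0.628 to 1.06 Mtags, and intronic sites called in them alone had a median pileup of 3 tags. A p that missed its threshold does not show that calls did not differ. The alternatives without the SINE words, without transcript-like sites and for treated livers only were chosen after seeing the data. Leaving out either kind of site moved 0 counts by over 1.5 times, and so did a margin of 200 bp from exons. The cause of the changes below was not tested.

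When all libraries were held to a q of 0.05, sites gained in WT HFD-Pio fell to 30, sites lost to 0 in WT Pio and 1 in WT HFD-Pio, and sites higher in WT to 32, with 248 higher in KO. With a −log10 q of at least 5 there were 228 sites, gained and lost 46 and 0 in WT Pio, 19 and 0 in WT HFD-Pio, 4 and 18 in KO Pio, and 0 and 6 in KO HFD-Pio. Fisher's test then called 0 higher with Pio in WT, 19 higher in WT and 60 higher in KO livers, and the log2 ratio of sites per liver was 2.41 for WT Pio, 2.34 for WT HFD-Pio and −0.63 for KO Pio. With the 1000 strongest peaks per library there were 104 sites, gained and lost 21 and 4 in WT Pio, 1 and 5 in KO Pio, and 0 and 1 in KO HFD-Pio, with 16 gained in WT HFD-Pio, 1 lower with Pio in WT, 23 higher in WT and 15 higher in KO livers, and log2 ratios of 0.17 for WT Pio (1.16 with all peaks), 0.31 for WT HFD-Pio, −0.78 for KO Pio and −0.48 for KO HFD-Pio.

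An overlap of at least 50% gave 5 lost in WT Pio, 1 lost in WT HFD-Pio and 11 gained in KO HFD-Pio. Sites called in at least 5 libraries numbered 530, with 2 and 1 lost in WT Pio and WT HFD-Pio, 15 and 8 gained in KO Pio and KO HFD-Pio, and 35 higher with Pio in WT. At least 4 of 5 against at most 1 of 5 gave 57 gained and 0 lost in WT Pio, 23 and 1 in WT HFD-Pio, 8 gained in KO Pio, and 7 and 12 in KO HFD-Pio. Without the short-fragment libraries, 0 were higher with Pio in WT, where the design allows no p under 0.000999. Untreated livers alone gave 7 higher in WT and 114 in KO, and treated livers alone 40 and 47. Direct repeats were in 1.01% with at most 1 mismatch, 0.155% with 0 and 6.89% within 50 bp. Limma called 8 in KO Pio where sites were called in at least 4 of 5 livers. With the replicate block it called 4 there and 0 in KO HFD-Pio, and the block changed no other call. The numbers did not pair the KO livers.

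Without 1 liver, gained and lost ranged over 59 to 117 and 0 to 12 in WT Pio (lost 0, 3 and 1 without WT Control replicates 2, 3 and 4; gained 59 without WT Pio replicate 3, 70 without replicate 2, 71 without replicate 5), 21 to 65 and 0 to 5 in WT HFD-Pio (21 without replicate 1 or 4, 24 without replicate 5), 9 to 43 and 14 to 51 in KO Pio (gained 43 and 37 without KO Control replicates 3 and 5 and 9 to 15 without any 1 KO Pio liver, lost 14 to 22 without KO Control replicate 1, 2, 3 or 4), and 7 to 22 and 7 to 28 in KO HFD-Pio (gained 7 to 10 without KO HFD-Pio replicate 1, 2, 3 or 4, lost 7 to 10 without KO HFD replicate 1, 2, 3 or 4). Without 1 liver, 17 to 68 were higher with Pio in WT (66 without WT Pio replicate 4, 68 without WT HFD-Pio replicate 2 or 3, 52 without replicate 5), 52 to 84 higher in WT (80 to 84 without any of 12 WT livers) and 235 to 327 higher in KO. Limma called 0 to 11 in KO Pio (5 and 7 without KO Control replicates 3 and 5) and 0 to 1 in KO HFD-Pio. The log2 ratio of sites per liver ranged over 0.89 to 1.63 in WT Pio, 1.03 to 1.69 in WT HFD-Pio, −0.12 to 0.14 in KO Pio and −0.47 to 0.17 in KO HFD-Pio.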
